A study of Solanum virginianum with 36 samples.

Results

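The comparison described here set 3 leaf libraries of a thrips-resistant eggplant line after 24 h of feeding by western flower thrips against 3 leaf libraries of the same line at 0 h. These were 6 of the 36 libraries of the series, which also covered 4, 8, 12 and 48 h and a thrips-susceptible line at the same 6 times, with 3 biological replicates in each group. All plants grew in a greenhouse with long days and cool nights and were sampled a week after transplanting, and the label "thrips feeding" was given to every library, those at 0 h included. The labels name neither accession nor genotype for the lines, and give Solanum virginianum as the organism where the series speaks of eggplant. The 24 h and 0 h samples would fall at the same hour of the day. The labels list no group of unfed leaves at 24 h, so a day of feeding cannot be told apart from a day of plant age or handling. They call the replicates biological without saying whether each was a separate plant. The p-values rest on the spread between libraries of a group, estimated over all 36 libraries. Of 85443 gene IDs in the count table, 33340 had a count in the series and 23719 passed the filter on low counts and were tested.

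Thrips pierce single leaf cells and empty them, which leaves many small wounds. Leaves that are wounded or fed upon commonly switch on jasmonate signalling, the hormone pathway behind proteinase inhibitors and many other defence products, while genes of growth and photosynthesis are often turned down. Much of the leaf transcriptome also follows the day through the circadian clock. The title of the series names quinic acid, a precursor of chlorogenic acid, as the compound of interest. The files give IDs without names or descriptions, so none of these pathways could be looked up, and the leaf label could not be checked against marker genes.

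Totals of estimated counts over gene IDs were 33959621 to 37155828 at 24 h and 30629392 to 41243395 at 0 h. One library stood out, since replicate 1 at 24 h lay apart from the other 24 h libraries. Its log2 CPM (counts scaled to a common library size) correlated across IDs at 0.954 and 0.957 with replicates 2 and 3 at 24 h, and at 0.955, 0.956 and 0.948 with the 0 h libraries, while replicates 2 and 3 at 24 h correlated at 0.966 with each other. The 0 h libraries correlated at 0.959 to 0.961 among themselves. A larger share of the counts sat in few IDs at 24 h. The 100 most abundant IDs of each library took 26.9, 31.7 and 30.9% of its counts at 24 h, against 23.3, 23.6 and 25.5% at 0 h, so the groups did not overlap. The difference of 5.72 percentage points had p = 0.1 in an exact two-sided permutation test, the smallest p that 3 against 3 libraries allow. The number of IDs with a count was 22340 ± 394 at 24 h and 22600 ± 430 at 0 h (SD, n = 3 each; exact permutation p = 0.6).

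After 24 h of feeding, 1017 IDs rose and 1047 fell in the resistant line. Together these were 8.7% of the IDs tested (4.29% rose and 4.41% fell), in edgeR's quasi-likelihood test with Benjamini-Hochberg adjustment over all 23719 IDs. The median change was 1.10 log2 units among IDs that rose and -1.11 among IDs that fell, against 0.00 over all IDs tested. A change past 1 log2 unit was found for 581 of the IDs that rose and 592 of those that fell, and past 2 log2 units for 182 and 162. The smallest changes that passed were 0.28 and -0.26. For 949 IDs that rose, all 3 libraries at 24 h lay above all 3 at 0 h, and for 1013 IDs that fell, all lay below. Over all IDs tested, 10.6% had the 24 h libraries all above and 11.5% all below those at 0 h. The call itself favours IDs whose groups lie apart, so the counts among called IDs are no separate support. In bulk leaf RNA, fewer cells of a type and less RNA per cell cannot be told apart. Without replicate 1 at 24 h, 2247 IDs changed, 1705 of them among the 2064, without replicate 3 at 24 h 1169, and without replicate 1 at 0 h 1367. A fit of only these 6 libraries gave 762, of which 694 were among the 2064. The balance of the directions depended on the scaling, since limma on the deposited FPKM (fragments per transcript length and library size) called 493 IDs higher and 1517 lower, with the median of the 12458 IDs with a mean FPKM of at least 1 at -0.15 log2 units. After division of the FPKM by the TMM scaling factors of the counts, limma called 786 higher and 876 lower, with that median at 0.00.

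Abundant transcripts changed more often than scarce ones. Of 104 IDs with a mean above 1000 CPM over the 6 libraries, 29 rose and 6 fell, or 33.7% in all. Between 100 and 1000 CPM, 191 of 1963 rose and 123 fell, and between 10 and 100 CPM 588 of 9219 rose and 614 fell. Below 1 CPM, 45 of 6605 rose and 61 fell, or 1.6%. Precision also differed between these classes. The median standard error of the log2 fold change was 0.25 above 1000 CPM and 0.20 to 0.21 from 10 to 1000 CPM, but 1.1 below 1 CPM. Among the IDs that rose, 23 had no count in any 0 h library, and among those that fell, 32 had none in any 24 h library. Fitted fold changes of these IDs depend on the prior count of the fit and lie on the outer branches of the plot of fold change against level.

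**Figure D1:**
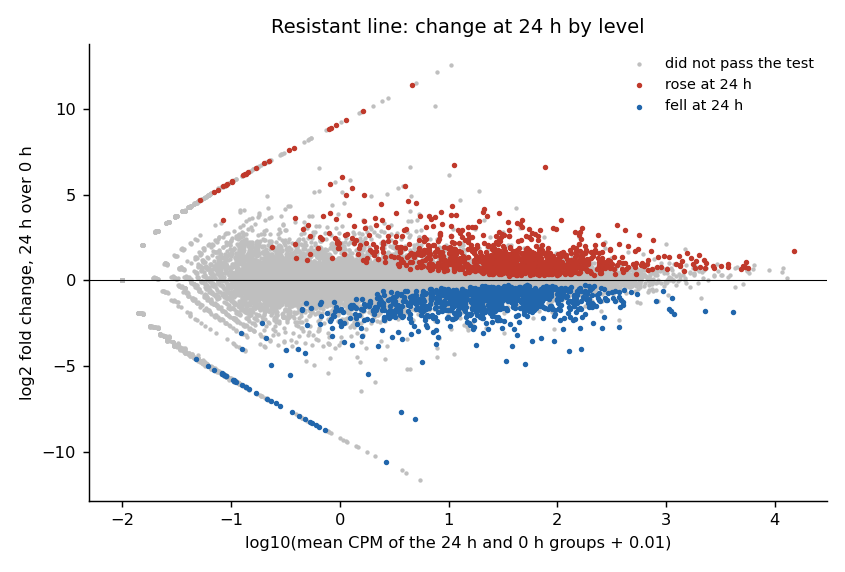
Log2 fold change of the resistant line at 24 h over 0 h for all 23719 IDs tested, against the log10 of the mean CPM of both groups. Red points rose (1017), blue points fell (1047) and grey points did not pass edgeR's test; the outer branches are IDs at or near 0 in 1 of the groups.

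The IDs that rose made up a larger part of the leaf's mRNA at 24 h. Their summed share of all counts with an ID was 16.3, 19.6 and 20% in the 24 h libraries, against 10.1, 10.4 and 10.3% in the 0 h libraries. Replicate 1 at 24 h again lay nearest to 0 h. The IDs that fell held 3.43, 3.21 and 2.79% at 24 h, against 8.02, 7.83 and 8.27% at 0 h. Since the test chose these IDs, the shares describe its size and carry no test of their own. The gain rested on few IDs, as 24 of the 1017 accounted for 50% of the summed change in CPM and 10 for 34.1%. The loss was spread somewhat wider, with 51 of 1047 IDs for 50%, although 10 IDs accounted for 30.3% of it. With the 10 largest contributors left out, the IDs that rose still held 11.3 to 13.0% at 24 h, against 6.59 to 7.06% at 0 h.

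The largest rise among IDs with at least 10 counts in each of the 6 libraries was that of Sme2.5_01596.1_g00014. It stood at 72.9, 49.3 and 339 CPM at 24 h, against 1.06, 1.25 and 2.49 CPM at 0 h. Every library at 24 h lay far above every library at 0 h, although the 24 h libraries differed widely among themselves. The log2 fold change was 6.60 ± 1.32 (SE; edgeR adjusted p = 0.0014), or 96.9-fold. Without replicate 3 at 24 h it was 5.27 (edgeR adjusted p = 0.011), and with limma on log2(FPKM + 1), a scale that understates the change of low IDs, 4.14. Per transcript length, the authors' FPKM read 17.9, 9.83 and 68.0 at 24 h, against 0.21, 0.324 and 0.614 at 0 h. At the other times of the resistant line, the mean was 94.6 ± 98.7 CPM after 4 h, 135 ± 74.5 CPM after 8 h, 42.8 ± 54.4 CPM after 12 h and 1940 ± 1490 CPM after 48 h (SD, n = 3 each). Every later library lay above those of 0 h, the replicates of a time were uneven, and the 48 h libraries, at 728 CPM or more, lay above those of every other resistant group. In the susceptible line it had 266 ± 53.2 CPM at 24 h and 31.4 ± 20.8 CPM at 0 h (SD, n = 3 each; edgeR adjusted p = 0.093).

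Sme2.5_01764.1_g00004 rose next most. Its libraries at 24 h read 20.1, 16.7 and 24.1 CPM, against 0.572, 0.984 and 1.41 CPM at 0 h, with no overlap. The log2 fold change was 4.36 ± 0.77 (SE; edgeR adjusted p = 0.00042), or 20.6-fold, and 2.64 with limma on log2(FPKM + 1). Means of the resistant line were 8.23 ± 8.85 CPM after 4 h, 3.42 ± 0.41 CPM after 8 h, 6.35 ± 4.04 CPM after 12 h and 47.1 ± 18.7 CPM after 48 h (SD, n = 3 each), so the 48 h libraries, from 28.8 CPM up, lay above those at 24 h. The susceptible line held 43.3 ± 10.1 CPM at 24 h and 15.1 ± 9.75 CPM at 0 h (SD, n = 3 each; edgeR adjusted p = 0.19). A difference between the lines in this change did not pass (interaction 2.84 ± 0.97 log2 units, SE; edgeR adjusted p = 0.28), nor did it for Sme2.5_01596.1_g00014 (3.52 ± 1.52 log2 units; edgeR adjusted p = 0.43).

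Sme2.5_00196.1_g00009 had the deepest fall by the same rule. It was at 3.24, 4.45 and 2.17 CPM at 24 h, against 86.9, 93.6 and 109 CPM at 0 h. The replicates of each group lay close together, and the groups were far apart. The log2 fold change was -4.88 ± 0.24 (SE; edgeR adjusted p = 2.5e-13), a level 29.4-fold lower. Its means were 103 ± 8.28 CPM after 4 h, 48.9 ± 5.7 CPM after 8 h, 57.9 ± 6.41 CPM after 12 h and 1.15 ± 0.0732 CPM after 48 h (SD, n = 3 each), so the lowest levels were those of 24 and 48 h. The susceptible line had 3.10 ± 0.914 CPM at 24 h and 106 ± 11.5 CPM at 0 h (SD, n = 3 each), where the ID also fell (edgeR adjusted p = 1e-13). The interaction was 0.22 ± 0.30 log2 units (SE; edgeR adjusted p = 0.95).

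Sme2.5_05027.1_g00002 read 3.17, 2.52 and 1.71 CPM at 24 h, against 69.9, 42.7 and 82.2 CPM at 0 h. Its log2 fold change was -4.71 ± 0.43 (SE; edgeR adjusted p = 3.9e-08), or 26.3-fold lower. Means were 41.7 ± 19.2 CPM after 4 h, 13.0 ± 5.86 CPM after 8 h, 14.6 ± 1.20 CPM after 12 h and 2.23 ± 0.554 CPM after 48 h (SD, n = 3 each), so the level was already lower by 8 h. It fell in the susceptible line too, with 2.41 ± 0.91 CPM at 24 h and 89.8 ± 28.3 CPM at 0 h (SD, n = 3 each; edgeR adjusted p = 6.6e-09). All 4 IDs kept their call in each alternative run for them, 17 for the IDs with an FPKM value and 14 for Sme2.5_05027.1_g00002, with adjusted p from edgeR, DESeq2 or limma of at most 0.027.

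**Figure D2:**
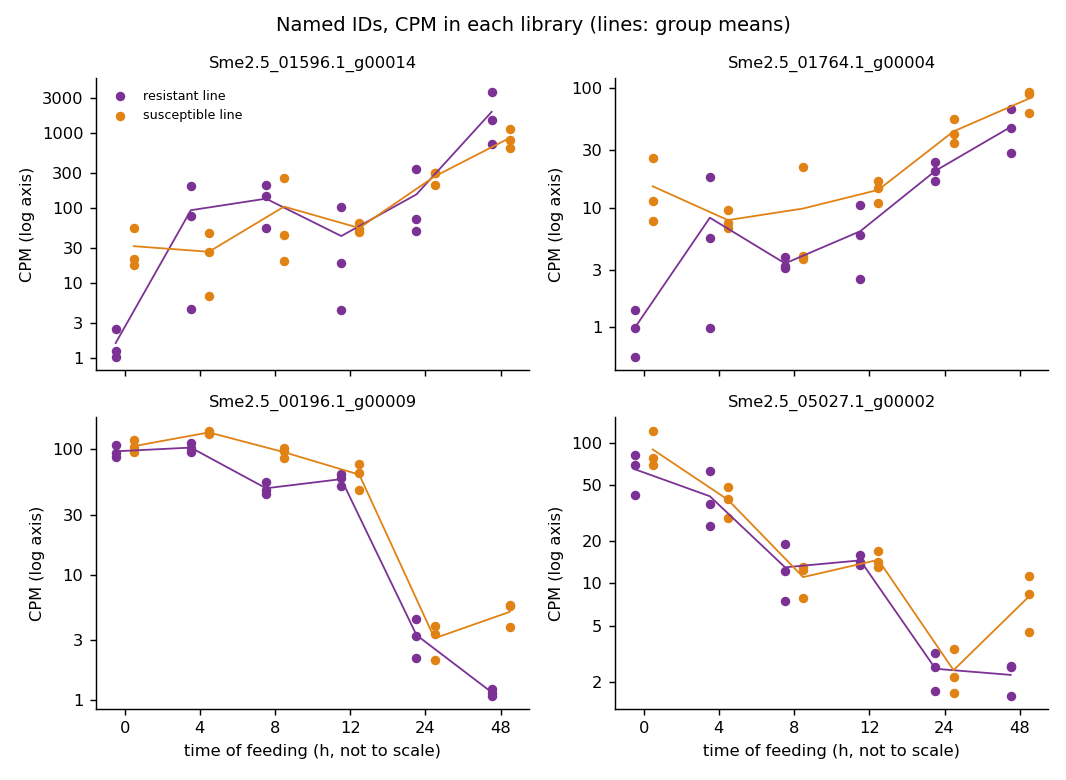
CPM of the 4 named IDs in every library (points; log axes) by hours of feeding, with lines through the means of 3 libraries per group, resistant line in purple and susceptible line in orange. The upper IDs were higher at 24 h than at 0 h in the resistant line and highest at 48 h, and the lower IDs were at or below 4.45 CPM at 24 h in both lines.

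The other times of the resistant line are not in the contrast that chose these IDs, although their libraries share in its filter and in its estimate of spread. The median log2 ratio to the 0 h mean over the 1017 IDs that rose ranged across the 3 libraries of a time from 0.11 to 0.31 after 4 h, from 0.14 to 0.38 after 8 h, from 0.72 to 0.77 after 12 h and from 0.95 to 1.15 after 48 h. At 24 h, where the IDs were chosen, it was 0.84 in replicate 1, 1.19 in replicate 2 and 1.23 in replicate 3. Over the 1047 IDs that fell, the median ranged from -0.70 to -0.34 after 4 h, from -0.89 to -0.45 after 8 h, from -1.05 to -0.93 after 12 h and from -1.22 to -0.89 after 48 h. Over all IDs tested it was 0.00 in each resistant library. These ratios all use the 0 h libraries, so they are set side by side and are not separate evidence. By this median the IDs that fell stood below 0 h from 4 h on, and those that rose stood at most 0.38 above it until 8 h. The 0 h libraries also helped to choose the IDs, which can push every such ratio in the called direction. These medians therefore give no time of onset. In the susceptible line, against its own 0 h, the medians at 4 h were -0.04 for IDs that rose and -0.14 for those that fell.

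Among the groups at 4, 8, 12 and 48 h alone, 58.2% of the IDs that rose had their highest mean at 48 h and 29.7% at 12 h, against 28.1 and 22.2% of all IDs tested. Of the IDs that fell, 52.5% had their highest mean at 4 h, against 18.7% of all, and 53.3% their lowest at 48 h, against 29.4%. The change from the mean of 4, 8 and 12 h to 48 h, which uses neither 24 h nor 0 h libraries, had a median of 0.62 log2 units over the IDs that rose and -0.33 over those that fell, against 0.00 over all IDs tested. With the 762 IDs called from the 6 libraries alone, it was 0.92 and -0.42. Over the 2064 IDs it was positive for 81.3% of the IDs that rose and negative for 75% of those that fell, against 47.6 and 48.2% of all. Time of feeding and hour of the day differ together in that contrast and cannot be told apart.

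**Figure D3:**
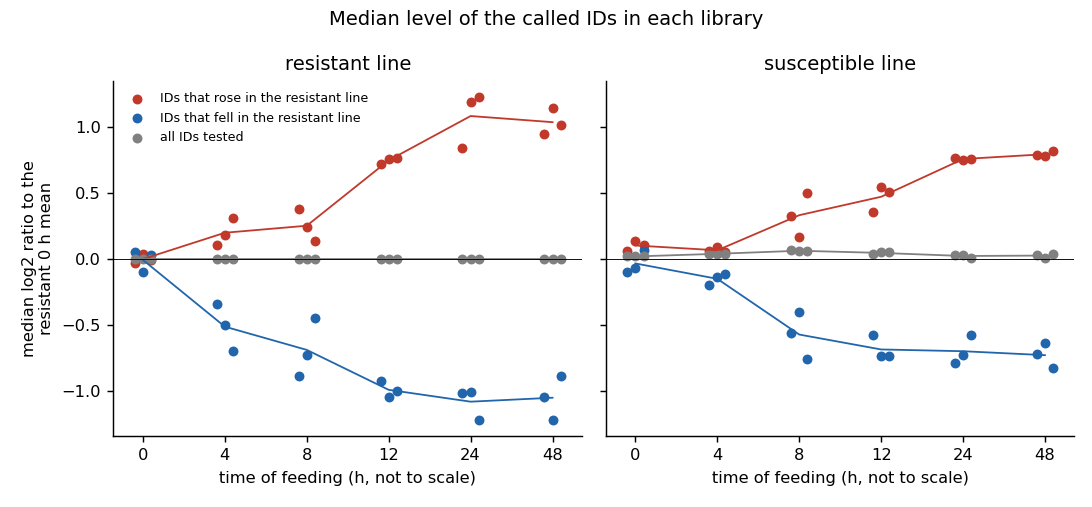
Median log2 ratio to the resistant 0 h mean in each library (points; lines join means of 3 libraries) over the IDs that rose (red) and fell (blue) in the resistant line and over all IDs tested (grey). In the susceptible line, the IDs that rose stood at 0.75 to 0.77 at 24 h and at 0.06 to 0.14 at 0 h. Those that fell stood at -0.79 to -0.58 at 24 h and at -0.1 to 0.07 at 0 h. The resistant 0 h libraries of this baseline helped to choose the IDs. Against the susceptible line's own 0 h, the medians at 24 h were 0.55 and -0.64.

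Most of these IDs had a fold change of the same sign in the susceptible line. Its libraries are not in the contrast that chose the IDs, but they were part of the joint fit and so of its filter and spread. The IDs that rose in the resistant line had a median change of 0.55 log2 units from 0 to 24 h in the susceptible line, positive for 896 of 1017 (88.1%). The IDs that fell had a median of -0.64, negative for 90.7%. Over all IDs tested the median was 0.00 and 47.7% were positive, and over the 18137 IDs with a mean of at least 1 CPM 49.2% were positive. With the lists called without replicate 1 at 24 h of the resistant line, these medians were 0.43 and -0.54. With the 762 IDs called from the 6 libraries of the comparison alone, which no susceptible library helped to choose, they were 0.91 and -1. At the other times of the susceptible line, the IDs that rose had medians against its 0 h of -0.04 (4 h), 0.25 (8 h), 0.31 (12 h) and 0.61 (48 h). The IDs that fell had -0.14 (4 h), -0.51 (8 h), -0.63 (12 h) and -0.63 (48 h).

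In the other direction, the 797 IDs that rose in the susceptible line had a median of 0.64 in the resistant line, and the 874 that fell there had -0.71. Their medians in the susceptible line, whose contrast chose them, were 1.01 and -1.18. The median of each list was nearer to 0 in the line whose contrast had not chosen it. Of the IDs that rose in the resistant line, 363 also rose in the susceptible line, which is 35.7% of the resistant and 45.5% of the susceptible list. For those that fell it was 425, or 40.6% and 48.6%. Among all IDs tested, 3.36% rose and 3.68% fell in the susceptible line. IDs that rose in the resistant and fell in the susceptible line numbered 4, and none did the reverse. The lines share 1 estimate of the spread of each ID, which eases joint calls of IDs that vary little. At the 4 times other than 0 and 24 h, the median difference of the resistant minus the susceptible line was 0.16 log2 units over the IDs that rose. Over those that fell it was -0.26, and over all IDs tested -0.05. Medians of single resistant libraries against the susceptible mean had an SD of 0.402 for IDs that rose and 0.281 for those that fell. This SD includes differences between the times.

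**Figure D4:**
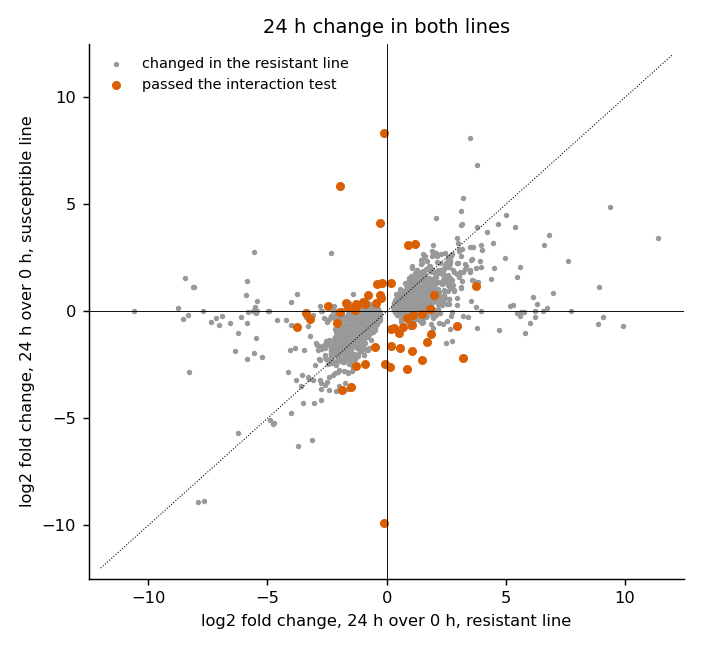
Log2 fold change at 24 h over 0 h in the resistant line (horizontal) and in the susceptible line (vertical) for the 2064 IDs that changed in the resistant line (grey) and the 54 IDs that passed the interaction test (orange); the dotted line marks equal change. Most grey points lie in the lower left and upper right, and 36 of the 54 orange points have opposite signs in the lines.

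A direct test of the difference in the 24 h change between lines passed for 54 IDs, 0.228% of those tested, with edgeR's quasi-likelihood test and Benjamini-Hochberg adjustment. In 28 of them the resistant line moved up relative to the susceptible line, and in 26 down. Of the 54, 23 changed in the resistant line alone by their own test, 19 in the susceptible line alone and 12 in both. Without replicate 1 at 24 h of the resistant line, 104 passed, and without replicate 1 at 24 h of the susceptible line 111. Without replicate 3 at 24 h of either line it was 35 in the resistant and 34 in the susceptible case, and 35 without replicate 2 of the susceptible line at 24 h. A fit of only these 12 libraries passed 16, and DESeq2 passed 354. In simulated data, 200 IDs with a mean of at least 1 CPM were changed in the resistant line. No other ID changed from 0 to 24 h in either line, unlike in the real data, where the rates can differ. The interaction test of edgeR found 9% of the 2-fold and 59% of the 4-fold changes. The test of 24 h against 0 h found 36 and 73%. DESeq2's interaction test found 20 and 68% in the simulated data, but with 34 false calls, where edgeR's had 3. IDs that did not pass the interaction test are therefore not shown to change alike in both lines.

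Sme2.5_03454.1_g00001 rose in the resistant line while its values in the susceptible line stood lower at 24 h than at 0 h in the mean. Resistant libraries read 5.4, 7.43 and 7.61 CPM at 24 h, against 0.715, 0.816 and 1.08 CPM at 0 h (log2 fold change 2.97 ± 0.41, SE; edgeR adjusted p = 1.9e-05). Susceptible libraries read 23.4, 15.5 and 16.2 CPM at 24 h, against 36.4, 23.0 and 29.9 CPM at 0 h, with overlap (edgeR adjusted p = 0.3). The interaction was 3.67 ± 0.55 log2 units (SE; edgeR adjusted p = 0.00084). Even so, each resistant library lay below each susceptible one at 24 h.

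Sme2.5_02712.1_g00007 fell in the susceptible line, to 2.31, 1.37 and 1.77 CPM at 24 h, against 13.6, 12.8 and 9.39 CPM at 0 h (log2 fold change -2.71 ± 0.38, SE; edgeR adjusted p = 2.5e-05). In the resistant line it had 5.46, 12.4 and 7.74 CPM at 24 h, against 4.00, 4.44 and 5.78 CPM at 0 h, where the groups overlapped (edgeR adjusted p = 0.16). The interaction was 3.56 ± 0.52 log2 units (SE; edgeR adjusted p = 0.00067). With a replicate block in a fit of only these 12 libraries the call was lost, at 3.52 log2 units (edgeR adjusted p = 0.1), and limma on log2(FPKM + 1) gave 2.24. The susceptible line held 3.43 ± 1.69 CPM after 4 h, 19.1 ± 3.61 CPM after 12 h and 18.2 ± 4.25 CPM after 48 h (SD, n = 3 each), and its mean was lowest at 24 h.

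Sme2.5_01512.1_g00012 was low at 24 h in the resistant line and at no other time there. Its libraries held 15.9, 10.9 and 9.91 CPM at 24 h, against 143, 120 and 121 CPM at 0 h, which is 10.5-fold lower (log2 fold change -3.39 ± 0.35, SE; edgeR adjusted p = 3.1e-07). Group means at the other times were 114 ± 21.1 CPM (4 h), 122 ± 8.39 CPM (8 h), 123 ± 11.2 CPM (12 h) and 112 ± 13.9 CPM (48 h; SD, n = 3 each). The susceptible line had 76.1, 75.3 and 73.9 CPM at 24 h, against 77.6, 79.1 and 80.4 CPM at 0 h, and the interaction was -3.31 ± 0.47 log2 units (SE; edgeR adjusted p = 0.00042). A low value appeared in that line in 1 library at 48 h, at 10.6 CPM where the highest of that group was at 64.3 CPM. Whether reads of this ID went to a near-identical copy in those libraries was not tested.

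Sme2.5_00034.1_g00021 was high at 0 h in the resistant line. It had 3.91, 1.63 and 1.67 CPM at 24 h in the resistant line, against 35.2, 22.4 and 41.2 CPM at 0 h (log2 fold change -3.77 ± 0.51, SE; edgeR adjusted p = 1.8e-05). The means of the resistant line at 4, 8, 12 and 48 h were between 1.82 and 2.70 CPM, so the 0 h libraries were the high ones. The susceptible line had 3.75, 3.15 and 3.39 CPM at 24 h, against 4.91, 4.90 and 7.43 CPM at 0 h. The interaction of -3.03 ± 0.67 log2 units (SE) lay just under the threshold (edgeR adjusted p = 0.049), and 17 of 22 alternatives ended the call, with adjusted p of up to 0.16.

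**Figure D5:**
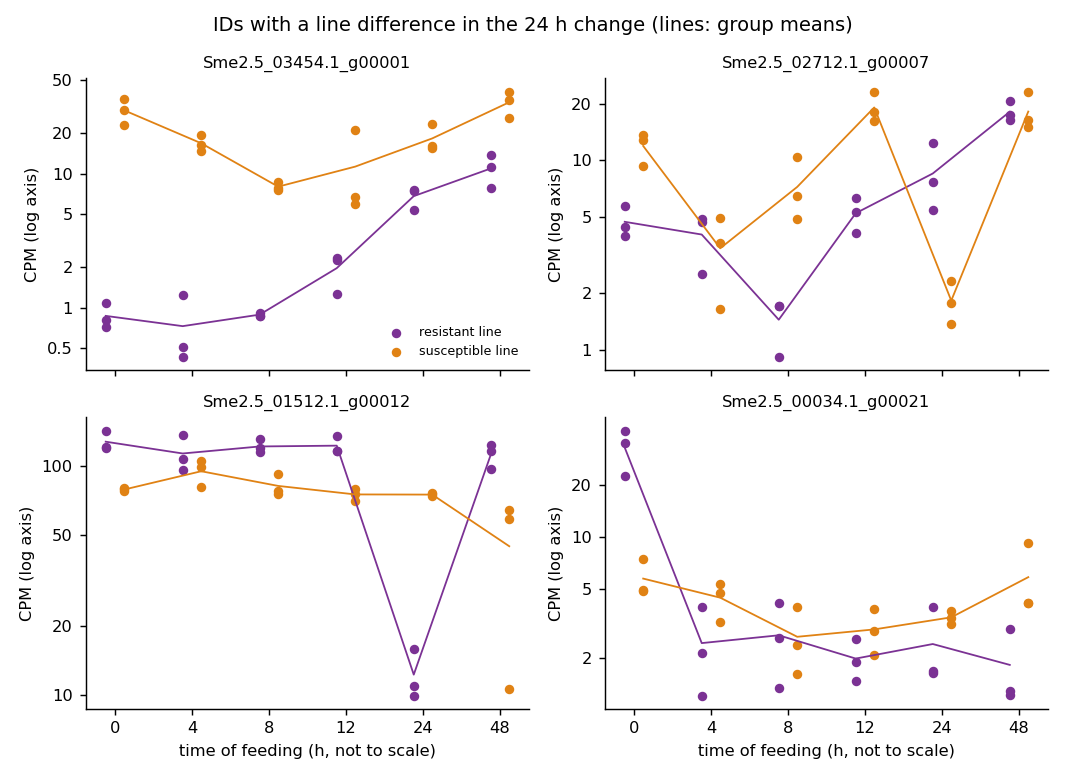
CPM of the 4 IDs named for a line difference in the 24 h change, in every library (points; log axes) by hours of feeding, with lines through the means of 3 libraries per group. Sme2.5_01512.1_g00012 dips to 12.2 CPM at 24 h in the resistant line (purple) against 75.1 CPM in the susceptible line (orange), and Sme2.5_02712.1_g00007 dips at 24 h in the susceptible line.

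IDs that changed tended to sit beside IDs that changed the same way. The IDs carry a scaffold name and a running number, and 2 IDs were taken as neighbours where they shared the scaffold and had consecutive numbers. Of 1177 tested neighbours of IDs that rose, 110 also rose, or 9.35%, against 4.9% of all tested neighbours. The 95% exact Clopper-Pearson interval was 7.74 to 11.2% and, like those below, treats neighbours as independent. Neighbours that fell made up 4.59%. Of 1153 neighbours of IDs that fell, 100 also fell, or 8.67% (7.11 to 10.4%), against 4.8% of all. For IDs that rose, the share was 5.91% (4.47 to 7.65%) at a distance of 2 numbers, against 4.83% of all, 5.47% at 3, against 5.14%, and 6.61% (4.72 to 8.96%) at 5, against 5.16%. For IDs that fell, it was 7.82% (6.19 to 9.72%) at 2, against 5.01% of all, 6.06% at 3, against 5.06%, and 7.22% (5.25 to 9.63%) at 5, against 5.22%. At a distance of 10 the shares were 4.75 and 4.84%, against 5.69 and 5.58% of all. Runs of consecutive IDs held 104 of the 1017 IDs that rose, the longest with 5 members, and 91 of the 1047 that fell, the longest with 4. Each pair that changed alike was counted from both sides, so the neighbours are not independent. The intervals are therefore too narrow even for counting error. Whether neighbours share reads as near-identical copies was not tested.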

How the data were processed

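Leaf RNA of 36 libraries had been sequenced. The deposited values were estimated counts, written as whole numbers, and FPKM, in tables with a column for each library. Every column was matched to a sample by its name. The submitters' processing notes list FastQC and HTSeq 0.6.1. The aligner and genome build are not given in the sources used here. For 10257 IDs with a stable ratio of count to FPKM (SD under 0.05 on the natural log scale, counts of at least 50), a deposited count of 1 stood for a median of 0.347, so low values were rounded up. The counts were used as deposited. Rows without an ID, 3945 of 89388, held 4.47 to 4.71% of the counts of the 6 libraries and entered neither library sizes nor the main tests. The FPKM table ends after 65535 rows and covers 17463 of the tested IDs, without those of Sme2.5_05027.1_g00002 and Sme2.5_03454.1_g00001.

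In R 4.3.3, edgeR 4.0.16 was fitted to the 36 libraries together (a mean for each group, TMM scaling, filterByExpr), and its quasi-likelihood test was adjusted by Benjamini-Hochberg over all IDs tested at 0.05. Standard errors were derived from its F statistic. Alternatives used DESeq2 1.42.0 and limma 3.58.1 on log2(FPKM + 1), other scalings, fewer libraries, replicate blocks and each library of the groups compared left out. Library measures had exact permutation tests. Libraries of a group differed by a chi-square per ID of 66 to 143, so each counted as 1 sample. The fits were tested on simulated data with known changes. Named IDs were the 2 largest changes in each direction past the threshold with a mean of at least 10 CPM in the highest group and 10 counts in each library compared, and no overlap for 24 h against 0 h. The members, lists and rules were chosen with earlier results of these data known. The sets called in the resistant line without replicate 1 at 24 h, and the reading of the susceptible lists in the resistant line, were added after seeing the data.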

Additional observations from a re-analysis of the deposited data

Results flagged for a closer look

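The 24 h change differed between the lines, by a test of the difference itself, for 54 IDs, and for 3 to 354 in the alternatives. The 354 came from DESeq2, whose interaction test made 34 false calls in simulated data, against 3 for edgeR. Among the named ones the interaction was 3.67 log2 units for Sme2.5_03454.1_g00001, 3.56 for Sme2.5_02712.1_g00007, -3.31 for Sme2.5_01512.1_g00012 and -3.03 for Sme2.5_00034.1_g00021 (positive where the resistant line moved up relative to the susceptible line). The call of Sme2.5_00034.1_g00021 was lost in 17 of 22 alternatives. Rows without a gene ID lay outside the comparison. Of 3315 such rows that passed the filter, 131 differed between 24 h and 0 h in the resistant line in edgeR's test, adjusted over these rows, with 65 that rose and 66 that fell. This is a smaller share than the 2064 of 23719 rows with an ID (8.7%), and the difference was not tested.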

How the results depend on the processing

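The count of 2064 changed IDs was within 1.5 times of itself in the other alternatives, from 1543 (without replicate 2 at 24 h) to 2850 (DESeq2). It was 762 with only the groups compared, 720 with a replicate block in that fit, and 1169 to 2247 with 1 of the 6 libraries left out. A replicate block over all libraries gave 1976. Same-numbered resistant libraries at 24 h and 0 h deviated together at correlations of 0.191, 0.0333 and 0.228, against -0.238 to 0.0533 for unlike numbers. In the susceptible line the same-numbered libraries had 0.0731, -0.136 and -0.0471, against -0.0833 to 0.129 for unlike numbers. The main fit did not take the numbers as pairs, and whether they mark pairs was not tested. The share that rose was 24.5% with limma on log2(FPKM + 1) and 25% with log2(FPKM + 0.1), both as deposited, against 49.3% with edgeR. The interaction passed for 354 IDs with DESeq2, 16 with only the groups compared, 3 with a replicate block in that fit, 113 with limma on FPKM, 93 after TMM scaling, and 34 to 111 with 1 library left out. The interaction of Sme2.5_02712.1_g00007 had an adjusted p of 0.1 with that block. Lists called with only the groups compared gave larger medians in the susceptible line: -0.09 (4 h), 0.56 (12 h), 0.91 (24 h) and 0.91 (48 h) for IDs that rose, and -0.25 (4 h), -0.82 (8 h), -1.01 (12 h), -1 (24 h) and -1.12 (48 h) for those that fell. The change from 4 to 12 h to 48 h in the resistant line was 0.92 for IDs that rose. Lists called without replicate 1 at 24 h gave smaller ones: 0.43 (24 h) and 0.54 (48 h) for IDs that rose, and -0.05 (4 h), -0.35 (12 h) and -0.54 (24 h) for those that fell. No median turned its direction in these alternatives. Below 1 CPM the median standard error was 1.1 log2 units. The cause of these shifts was not tested.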
